A study of Mus musculus with 8 samples.

Results

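Mouse bone marrow-derived macrophages that had received RANKL for 2 days were compared with macrophages that had received none. The comparison took 4 of the 8 arrays of a time course, chosen by their day label alone: 2 arrays of day 0 and 2 arrays of day 2. Both groups came from the marrow of femurs and tibias of C57BL/6 mice aged 6 to 8 weeks, and every culture held M-CSF, the growth factor that keeps macrophages alive. Marrow cells spent 16 h in M-CSF at 5 ng/ml, the cells that had not attached were grown for 3 days in M-CSF at 30 ng/ml, and those that then adhered were the macrophages of day 0. The day 2 cells went on in M-CSF at that concentration with RANKL added at 50 ng/ml. The number of mice, any pooling of marrow and whether the paired arrays of each day stem from different cultures are not given in the labels, so the p-values measure only how far these samples varied, and that variation may be technical. Cells grown for 2 days in M-CSF without RANKL were not among the arrays, so RANKL and further culture cannot be told apart.

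RANKL binds its receptor RANK on cells of the macrophage lineage and, through TRAF adaptors, NF-kB and AP-1, induces NFATc1, the transcription factor on which osteoclast formation depends. The precursors first become mononuclear cells with osteoclast enzymes, then fuse, spread on an actin ring and dissolve bone with acid and the collagenase cathepsin K. Macrophage programmes of immune defence and of cell division are known to be turned down along the way.

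Of 25697 probes, 11281 to 11300 were detected per array, and 8663 genes were tested. All levels below are normalized log2 signals, and changes are day 2 minus day 0 on that scale with their standard error (±) from 2 arrays a day. A gene was called where limma gave a p-value under 0.05 after Benjamini-Hochberg adjustment over all genes tested. The arrays correlated across genes at r = 0.994 within day 0 and 0.9953 within day 2, against 0.9015 to 0.9033 between these days (genes are not independent replicates). The number of arrays limits the precision. The labelled cells carried most of their markers. Of those used for macrophages, Adgre1 (F4/80), Cd14, Mrc1 and Cx3cr1 read at least 10.97 on both arrays of day 0, while Itgam read 6.81 and 7.12. Of the osteoclast markers, Ctsk, Acp5, Mmp9, Oscar and Dcstamp read at least 10.14 on both arrays of day 2, while Calcr, the calcitonin receptor gene, read 6.20 and 5.99 and Itgb3 5.91 and 5.28.

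Most tested genes differed, and they were split almost evenly between the directions. At day 2, 2410 genes (27.8%) were higher and 2304 (26.6%) lower, 4714 (54.4%) in all, and the median change over all genes was 0.02. Most called changes were modest, with a median of 0.79 among the genes called higher and -0.88 among those called lower. At least 2-fold changes counted 887 higher (10.2%) and 991 lower (11.4%), at least 8-fold changes 106 and 127, and at least 32-fold changes 30 and 18. The 4 arrays were separated by day, with both arrays of a day beyond both of the other, for 6653 genes (76.8%), among them every called gene. Of the tested genes, 305 (3.52%) were not detected on either array of day 0 and detected on both of day 2, and 302 (3.49%) the reverse. Without background correction fold changes were smaller, which left 483 genes at least 2-fold higher and 524 lower, and the largest changes below shrank, for example from 9.19 to 7.18 for Mmp9 and from -7.52 to -4.85 for Ccl7. Tested against a 2-fold change with limma's treat, 501 genes were higher and 579 lower.

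**Figure D1:**
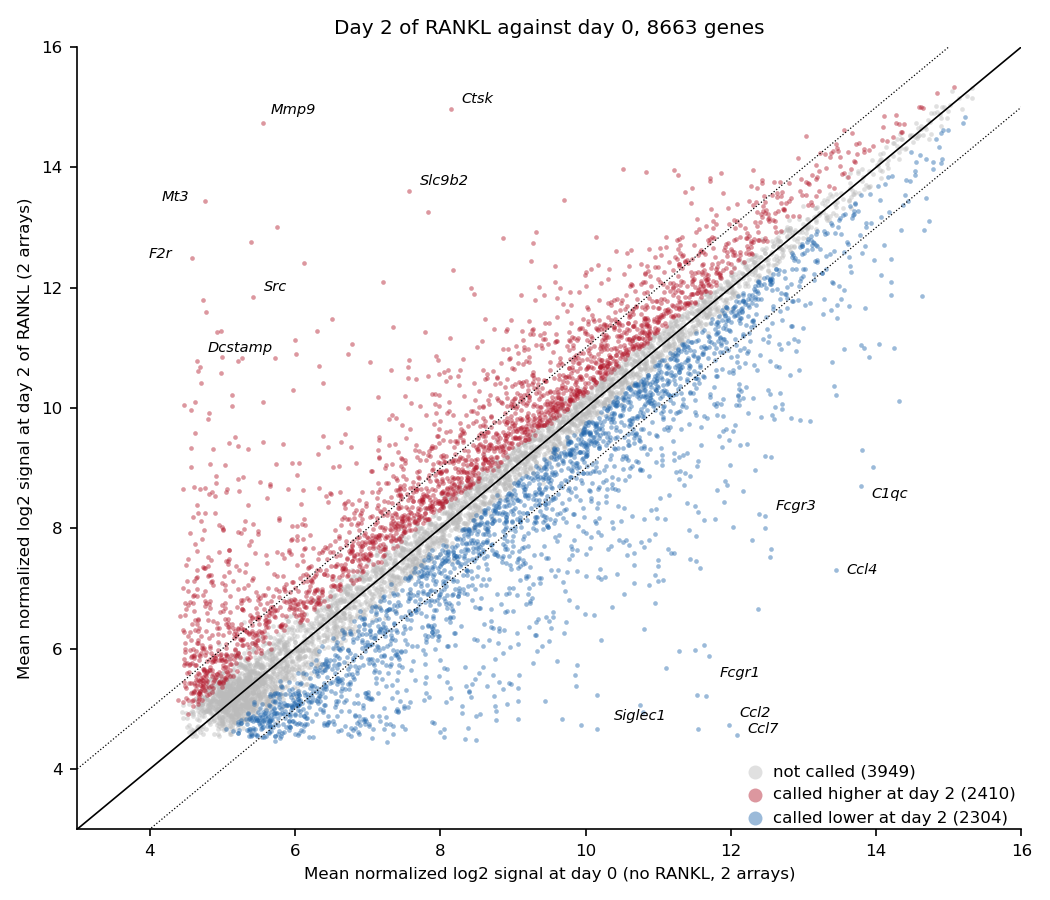
Mean normalized log2 signal of each gene at day 0 (horizontal) and day 2 (vertical), 2 arrays each. Red and blue points are the 2410 genes called higher and the 2304 called lower, grey points the rest, the solid line marks equal levels and the dotted lines a 2-fold difference. The resorption genes Mmp9 and Ctsk lie far above the line, and the chemokine genes Ccl7, Ccl2 and Ccl4 far below it.

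The largest increases among genes detected at both days on 1 array or more included 3 enzymes of bone matrix breakdown. Mmp9, a gelatinase of osteoclasts, read 5.48 and 5.63 on the arrays of day 0 and 14.77 and 14.71 on those of day 2. It rose by 9.19 ± 0.09, or 584-fold (adjusted p = 2.85e-08). Mmp14, a metalloproteinase anchored in the cell membrane, read 6.06 and 5.45 at day 0 and 13.02 and 12.99 at day 2, a rise of 7.25 ± 0.19 (153-fold). Ctsk, which codes for cathepsin K, rose by 6.81 ± 0.09 (112-fold) from 8.11 and 8.20 to 15.01 and 14.91. For each of the 3 genes the replicate arrays differed by far less than the days. Scin, an actin-severing protein of the sealing zone, rose by 7.37 ± 0.22 (165-fold), though it was detected on only 1 of the 2 arrays of day 0. Src, the kinase that osteoclasts need to form a ruffled border, rose by 6.42 ± 0.08 (85.4-fold) from 5.44 and 5.41 to 11.85 and 11.83. A dimmer probe of Src did not pass, at 0.64 (adjusted p = 0.0657 over probes).

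Surface and transport genes followed. Oscar, an immunoglobulin-like receptor that costimulates osteoclast formation, stood at 6.54 and 5.71 at day 0 and at 12.33 and 12.49 at day 2, a rise of 6.28 ± 0.25 (77.8-fold, adjusted p = 2.55e-06). At day 1 its arrays read 6.59 and 6.79, so that its difference between days 1 and 2 alone was 5.72. Slc9b2, a sodium-proton exchanger of osteoclasts, rose by 6.03 ± 0.09 (65.5-fold) and Slc45a3, a solute carrier, by 5.57 ± 0.11. Slc45a3 and Klra17 were each detected on 1 of the 2 arrays of day 0. Klra17, a receptor of the Ly49 family, rose by 5.56 ± 0.22 from 5.56 and 4.98 at day 0 to 10.92 and 10.74 at day 2, and its arrays of day 1 (5.41 and 5.85) overlapped those of day 0. Bdh1, the mitochondrial enzyme that interconverts ketone bodies, rose by 5.11 ± 0.12, and Denn2b, which carries a DENN domain, by 4.97 ± 0.12. Acp5, which codes for the tartrate-resistant acid phosphatase used to stain osteoclasts, rose by 5.09 ± 0.15 from a day 0 level detected on 1 of 2 arrays. The transcription factor genes Jdp2, of the AP-1 family, and Bhlhe40, a repressor, rose by 5.41 ± 0.11 and 5.14 ± 0.19, and the adaptor gene Traf1 by 4.97 ± 0.08.

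**Figure D2:**
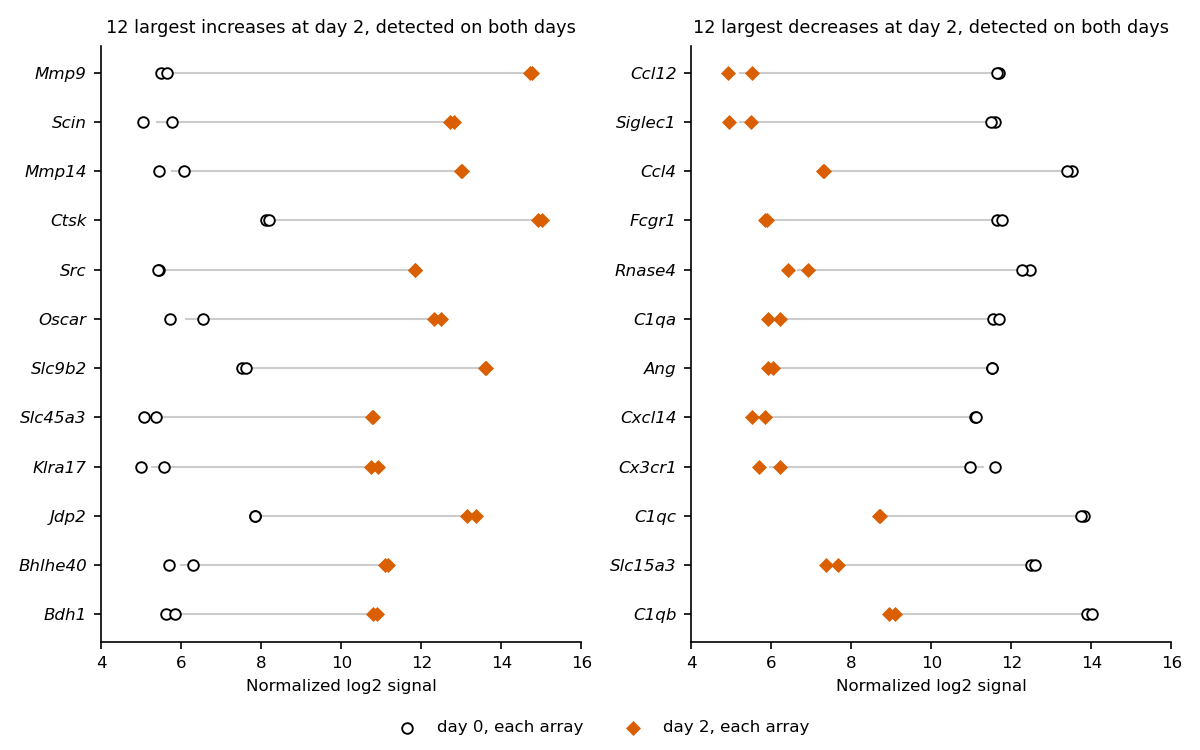
Normalized log2 signal on each array of day 0 (open circles) and day 2 (orange diamonds) for the 12 largest increases (left) and the 12 largest decreases (right) among called genes detected at both days on 1 array or more; grey lines join the means. Genes were also chosen for arrays that do not overlap between the days, so their separation in all 24 follows from the choice. The means differ by 9.19 for Mmp9 and by -6.45 for Ccl12.

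Some genes came up from a level that was not well above background at day 0. Their fold is given as a lower bound, for which each array of the dim day was set to the lowest signal among detected probes or to the probe's own signal, whichever was higher. Mt3, a metallothionein gene best known from brain, read 4.79 and 4.72 at day 0 and 13.42 and 13.48 at day 2 so that it was higher by at least 293-fold (adjusted p = 2.85e-08). F2r, the thrombin receptor gene, went from 4.47 and 4.70 to 12.45 and 12.53, at least 150-fold. Mst1r, the receptor kinase for macrophage-stimulating protein, was at least 92.8-fold higher, and Rufy4, a protein with RUN and FYVE domains linked to autophagy, at least 80.6-fold. For these 4 genes the arrays of day 2 stood at 11.57 or more, and no array of day 0 was above 4.90. Apbb1, an adaptor of amyloid precursor protein, Tmem204, Car2, a carbonic anhydrase that generates the acid secreted onto bone, and Dcstamp, a membrane protein required for cell fusion, came next. Their lower bounds were 64.8-fold, 64.7-fold, 48.2-fold and 46.2-fold in that order.

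The gene of the receptor itself changed little. Tnfrsf11a, the RANK gene, read 9.47 and 9.24 at day 0 and 9.90 and 9.75 at day 2, a rise of 0.47 ± 0.13 (adjusted p = 0.0202) whose call was lost under median scaling, without day 0 replicate 2 and without day 2 replicate 1. Of 28 genes listed for RANK, its adaptors and kinases, 23 were tested, of which 11 rose and 5 fell, with a median of 0.47. Traf1 led, followed by Birc2, a ubiquitin ligase bound to TRAF proteins (2.00 ± 0.08), Traf5, undetected at day 0 with a lower bound of 2.29-fold, and Traf6, the main adaptor of RANK (0.89 ± 0.12). The brightest probe of Traf6 stands for it here, and another of its 3 probes did not pass, at 0.15. Ikbkg and Mapk8 rose by 0.75 and 0.70, the deubiquitinase gene Cyld, a brake on this pathway, by 0.69, the scaffold gene Sqstm1 by 0.59, and Tab1 and Tab2 by 0.49 and 0.39. Both receptors of tumour necrosis factor went the other way: Tnfrsf1a fell by 0.89 ± 0.11 and Tnfrsf1b was at least 1.90-fold lower, not well above background at day 2. Map3k14, the kinase NIK, fell by 0.55, Mapk14 by 0.57 and Ikbkb by 0.37. The calls of Tab2 and Ikbkb were each lost without day 0 replicate 2 or day 2 replicate 1, and under other settings too. Traf2 (0.50), Birc3 (0.48), Pik3r1 (0.23), Map3k7 (0.13), Akt1 (-0.26), Map2k6 (-0.27) and Map2k1 (-0.34) did not pass.

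In NF-kB both subunits of the alternative arm rose. Nfkb2, the precursor of p52, read 5.35 and 5.43 at day 0 and 7.82 and 7.76 at day 2 and rose by 2.40 ± 0.14 (5.28-fold, adjusted p = 1.38e-05). Its partner Relb rose by 2.37 ± 0.09, from 7.07 and 7.25 to 9.55 and 9.50. Rela and Rel of the classical arm gave 0.08 ± 0.08 and 0.46 ± 0.22 and did not pass, Rel being detected on neither array of day 0 and on 1 of day 2. The difference between these subunits was not itself tested. Inhibitors rose beside them: Nfkbia by 2.22 ± 0.10, Nfkbie by 2.10 ± 0.13, Tnfaip3 by 2.10 ± 0.24 and Tnip1 by 1.70 ± 0.08, together with the atypical member Bcl3 (1.24 ± 0.11). Nfkbiz, an atypical inhibitor that is induced in inflamed macrophages, fell by 1.87 ± 0.09. In all, 7 of 11 tested genes of NF-kB rose and 1 fell, with a median of 1.70.

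Among transcription factors that drive osteoclast formation, 12 of 24 tested genes rose and 4 fell, with a median of 0.32. Nfatc1 read 9.11 and 9.45 at day 0 and 11.26 and 11.19 at day 2, a rise of 1.95 ± 0.13 (3.85-fold, adjusted p = 2.73e-05). All 4 of its probes were called higher, between 1.84 and 3.53. Nfatc2 (-0.11) and Nfatc3 (-0.13) did not pass. After Jdp2, the largest rises were those of Mycl, of the MYC family (4.15 ± 0.09, detected on 1 of 2 arrays of day 0), and Ppargc1b, a coactivator of mitochondrial genes (16-fold), which read 7.48 and 7.22 at day 0 and 11.35 on both arrays of day 2. Its partner Esrra, the receptor ERR alpha, rose by 1.41 ± 0.09. Fos, without which no osteoclasts form, rose by 1.37 ± 0.14 and was lower at day 2 (11.19 and 11.17) than at day 1 (12.15 and 11.71). Junb rose by 1.53 ± 0.09 and Jund by 0.74, whereas Jun gave -0.11, Fosb -0.13 and Fosl1 fell by 0.60. The other members that rose were Sbno2 (1.47), Atf4 (1.36), Spi1, which codes for PU.1 (1.12), and Mef2d (0.67). Of the other MEF2 genes, Mef2c fell by 2.94 ± 0.17, with all 3 probes called lower, and Mef2a fell by 1.65 ± 0.16. Tfe3 fell by 0.55. The calls of Mef2d, Fosl1 and Tfe3 were each lost without day 2 replicate 1 and under other settings. Creb1, Myc, Tfeb and Etv3 did not pass (-0.04 to -0.26).

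Genes that hold osteoclast formation back fell in 11 of 15 tested cases and rose in 1, with a median of -0.93. Id1, an inhibitor of helix-loop-helix factors, read 10.67 and 10.93 at day 0, dropped below detection at day 2 (5.23 and 4.65) and was lower by at least 46.6-fold (adjusted p = 2.9e-06). Irf8, the interferon regulatory factor of macrophages, fell by 3.93 ± 0.24 from 9.07 and 9.06 to 5.55 and 4.71, the lower of which was not detected. Klf2 fell by 3.05 ± 0.15, Id3 fell by 2.21 ± 0.08, Id2 by 2.18 ± 0.20, Bcl6 by 1.96 ± 0.13 and Cebpb by 1.71 ± 0.08. As in every called gene and in 76.8% of all tested genes, the days did not overlap in these genes. Prdm1, the repressor Blimp-1 that is known to silence several of them, was undetected on both arrays of day 0 (4.90 and 4.42), read 5.85 and 6.43 at day 2 and had a lower bound of 1.85-fold, a call that was lost without day 0 replicate 2 or day 2 replicate 2.

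The costimulatory receptors that signal through ITAM adaptors did not move as a block: 3 of 20 tested genes rose and 12 fell, with a median of -0.59. Oscar stood apart at 6.28, and the paired receptor gene Lilra6 rose by 1.16 ± 0.10. Trem2, the receptor that signals through the adaptor DAP12, read 13.98 and 14.09 at day 0 and 10.97 and 11.16 at day 2, and fell by 2.97 ± 0.11 (7.85-fold). Sirpb1a fell by 2.10 ± 0.19, Cd84 by 1.51 ± 0.08 and Clec7a, the receptor dectin-1, 2.82-fold. Their adaptors fell less, Fcer1g by 0.81 ± 0.08 and Tyrobp, which codes for DAP12, by 0.37 ± 0.11. The kinase gene Syk gave 0.59 ± 0.19 and was called, though it was detected on 1 array of day 2 and on neither of day 0, and Plcg2, the phospholipase below it, fell by 0.68 ± 0.10. Of 17 tested calcium genes 5 rose (29.4%) and 7 fell (41.2%), against 27.8% and 26.6% of all tested genes. Rcan1, a calcineurin inhibitor and target of NFAT, rose by 2.01 ± 0.09 and its relative Rcan2 was at least 2.89-fold higher, though another probe of Rcan2 did not pass (0.35). The calcium channel gene Orai1 fell by 1.05 ± 0.11, its sensor Stim1 by 0.82 ± 0.14 and the calcium pump gene Atp2a3 by 3.12 ± 0.14.

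Of the genes of cell fusion, 23 were listed and 20 passed the filter on dim probes. Of these, 5 rose (25%) and 5 fell (25%), close to the 27.8% and 26.6% of all tested genes. Their median was -0.05. Those that rose included both membrane proteins needed for fusion. Dcstamp read 4.54 and 4.76 at day 0, 7.68 and 7.38 at day 1 and 10.65 and 10.92 at day 2, and Ocstamp 4.72 and 4.81 at day 0 and 8.30 and 8.22 at day 2, at least 8.02-fold higher (adjusted p = 0.000271). Snx10, a sorting nexin of the same process, rose by 2.61 ± 0.15, Myo10, a myosin of filopodia, by 2.40 ± 0.25, and the integrin gene Itgav by 1.98 ± 0.10. Itgb3, which codes for the partner chain of the osteoclast integrin, gave 0.61 ± 0.23 (adjusted p = 0.0581) from a day 0 level not well above background. Among the members that fell were the tetraspanin genes Cd81 (2.31 ± 0.10) and Cd9 (0.44 ± 0.08), the metalloproteinase gene Adam8 (2.28 ± 0.10) and the ATP-gated channel gene P2rx7 (1.17 ± 0.24), while Rbpj was at least 1.42-fold lower. The adhesion molecules Cd44 (0.21), Cd47 (-0.10) and Cdh1 (-0.10), the CD47 receptor gene Sirpa (0.02), Sh3pxd2a (0.05), Rac1 (0.00), Tspan5 (-0.16), Dnm2 (-0.20) and Vav3 (-0.21) did not pass. Atp6v0d2, Adam12 and Tspan13 were not detected on enough arrays to be tested.

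Of 20 tested genes of bone resorption 16 rose and 1 fell, with a median of 1.94. Besides those given above, Rab38 was at least 35.8-fold higher, the chloride-bicarbonate exchanger gene Slc4a2 rose by 2.11 ± 0.09, the chloride channel gene Clcn7 by 1.77 ± 0.10 and its partner Ostm1 by 1.07 ± 0.11. Calcr was at least 1.79-fold higher, on 1 of its 2 probes only. Rab27a, a GTPase of lysosome secretion, fell by 2.43 ± 0.11, and Ckb did not pass (0.21, adjusted p = 0.0515). The proton pump that acidifies the space under the cell, the V-ATPase, had 13 of 18 tested subunits higher and 2 lower, with Atp6v1a at 2.11 ± 0.23, Atp6v1d at 2.03 ± 0.12 and Tcirg1, the osteoclast form of its a subunit, at 1.15 ± 0.08. Another form of that subunit, Atp6v0a1, fell by 3.23 ± 0.11 from 11.98 and 11.91 to 8.56 and 8.87. Actin ring and podosome genes rose in 12 of 28 tested cases and fell in 5, with Pxn, the adhesion adaptor paxillin (2.24 ± 0.09), and Vcl, vinculin (1.81), among those that rose, while Evl, an actin-binding protein, fell by 2.94 ± 0.25. Of 11 tested integrin genes 3 rose (27.3%) and 5 fell (45.5%), against 27.8% and 26.6% of all tested genes. Itgav, Itgb7 (1.86 ± 0.08) and Itga2 (at least 2.08-fold) were higher. Among those lower, Itgb5 fell by 2.62 ± 0.10 and Itga6 was at least 2.42-fold lower.

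Most genes of mitochondrial energy production rose. In respiratory complex I, which takes electrons from NADH, 27 of 33 tested genes rose and 0 fell (limma, with 0 lower at an unadjusted p under 0.05 as well), with a median of 0.68. In complexes II to V with cytochrome c it was 36 of 37 and 0 (likewise 0 lower at an unadjusted p under 0.05), with a median of 0.78, and the exception, Uqcrfs1, was not detected on any of the 4 arrays. Cyc1, cytochrome c1, read 11.88 and 11.91 at day 0 and 13.58 and 13.57 at day 2 and rose by 1.68 ± 0.09 (3.21-fold, adjusted p = 9.23e-06). The complex I subunit genes Ndufb10 and Ndufa6 rose by 1.72 ± 0.15 and 1.31 ± 0.08, the succinate dehydrogenase subunit gene Sdhd by 1.35 ± 0.17, and the ATP synthase subunit genes Atp5a1 and Atp5o by 1.58 ± 0.28 and 1.52 ± 0.12. Most members rose by less than that: 7 of the 33 genes of complex I and 12 of the 37 of complexes II to V rose by at least 2-fold. Over all tested genes 10.2% did so. Pyruvate dehydrogenase and the citrate cycle had 20 of 22 tested genes higher and 0 lower by limma at the adjusted or the unadjusted threshold, with a median of 1.24, led by Pdhb (2.22 ± 0.12), Mdh1 (1.98 ± 0.27) and Idh3a (1.80 ± 0.09), and the kinase gene Pdk1, which switches pyruvate dehydrogenase off, rose too (1.13 ± 0.10).

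Fatty acid oxidation rose in 12 of 16 tested cases and fell in 2, with Acaa2, the thiolase of its last step, at 2.04 ± 0.15 and Etfdh, which passes its electrons on, at 1.64 ± 0.11. The 2 members that fell, Acsl5 and Acsl4, activate fatty acids before oxidation, and the call of each was lost without day 2 replicate 2. Mitochondrial import and carrier genes rose in 17 of 28 tested cases and fell in 2, and mitochondrial ribosomal proteins in 45 of 69 and 1, with Mrps6 at 2.23 ± 0.08, Mrps35 at 1.91 ± 0.11 and Mrpl33 as the member that fell. Of the ribosomal proteins of the cytosol 11 of 52 tested genes rose (21.2%), a share below the 27.8% of all tested genes. By limma 0 fell, with 0 lower at an unadjusted p under 0.05 as well. The median was 0.09, with Rpl13a at 1.19 ± 0.10. The count of 11 became 7 with cyclic loess normalization and 20 with an intensity trend and robust prior, where 1 fell in each. It was 7 without day 0 replicate 1 and 6 without day 2 replicate 2.

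The promoters of these genes are shown for a motif of NRF1, a factor known to act on nuclear genes of respiration. Windows from 250 bases before to 50 bases after the annotated start were taken from RefSeq (GRCm38.p6), and GCGCA, any base, GCGC was searched on both strands. At least 1 window was found for 7115 of the 8663 tested genes, some of which have several. Atp5o lies on chr16:91931581-91931880 (minus strand) and Sdhd on chr9:50603800-50604099 (minus strand), each printed 5′ to 3′ along its gene with the match in capitals.
Atp5o: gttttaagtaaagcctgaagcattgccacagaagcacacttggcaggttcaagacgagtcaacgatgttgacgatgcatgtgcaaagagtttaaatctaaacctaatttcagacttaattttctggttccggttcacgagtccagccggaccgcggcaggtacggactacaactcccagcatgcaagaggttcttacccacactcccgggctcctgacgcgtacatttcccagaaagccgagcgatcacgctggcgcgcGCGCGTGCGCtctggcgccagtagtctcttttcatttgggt
Sdhd: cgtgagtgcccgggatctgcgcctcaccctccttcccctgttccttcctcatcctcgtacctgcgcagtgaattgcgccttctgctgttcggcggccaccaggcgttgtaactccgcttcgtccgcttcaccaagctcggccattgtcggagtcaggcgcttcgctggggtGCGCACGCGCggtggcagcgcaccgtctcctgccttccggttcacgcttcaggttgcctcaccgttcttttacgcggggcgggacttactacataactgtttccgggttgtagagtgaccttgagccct

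The motif was found in 8 of 33 windows of complexes II to V (24.2%), in 6 of 33 windows of complex I (18.2%) and in 10 of 67 windows of the mitochondrial ribosome (14.9%). For pyruvate dehydrogenase and the citrate cycle it was 1 of 29 windows (3.45%). Over all tested genes its share was 9.92%, and over all promoter windows 4.6%. Among genes at least 2-fold higher at day 2 it was 5.77%, and among those at least 2-fold lower 4.38%, both below the share over all tested genes. The pairs of motif and list shown here were picked after their shares had been seen, and a match is a description of the letters only. For AP-1 (TGANTCA) the share was 8.45% among genes at least 2-fold higher, 7.0% among those at least 2-fold lower and 5.69% over all tested genes, and 0 of 25 windows of the bone resorption genes held it.

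Glycolysis was divided by isoform, with 8 of 21 tested genes higher and 7 lower. The aldolase gene Aldoc read 8.74 and 8.19 at day 0 and 10.44 and 10.40 at day 2 and rose by 1.96 ± 0.17, Hk1 by 1.10 ± 0.16 and Pfkm by 1.00 ± 0.09. The glucose transporter gene Slc2a3 fell by 3.29 ± 0.12 (9.75-fold) from 9.75 and 9.70 to 6.59 and 6.28, the hexokinase gene Hk3 fell by 2.43 ± 0.08 and Hk2 by 0.84 ± 0.09. Ldha, the lactate dehydrogenase gene, gave 0.19 ± 0.08 (adjusted p = 0.0949). Genes of amino acid supply and of the ATF4 response rose in 16 of 24 tested cases and fell in 2, with a median of 0.95. Chac1, which breaks down glutathione, rose by 4.36 ± 0.09 from 6.36 and 6.30 to 10.65 and 10.73, the asparagine synthetase gene Asns by 2.50 ± 0.11 and the translation inhibitor gene Eif4ebp1 by 1.95 ± 0.10, and the glutamine transporter gene Slc1a5 was at least 2.89-fold higher. Slc3a2, the heavy chain shared by several amino acid transporters, was at least 2.20-fold lower and Psat1 fell by 0.31, a call lost on leaving out any single array of days 0 or 2. Chaperones of the endoplasmic reticulum did not follow, with 3 of 15 higher and 3 lower and Hspa5 at -0.51 ± 0.24 (adjusted p = 0.115).

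Lists of lipid, iron and redox genes each held members that rose and members that fell, and the iron and haem genes did so at 31.2% in either direction, close to the shares of all tested genes. Abcg1, the exporter of cholesterol to lipoproteins, was at least 10.2-fold higher, and Scd2, a fatty acid desaturase, rose by 2.91 ± 0.18, while Apoe fell by 2.59 ± 0.08 and Ch25h, the maker of the macrophage signal 25-hydroxycholesterol, was at least 78.3-fold lower. Cholesterol synthesis had 4 of 17 tested genes higher and 6 lower, none of them by 2-fold. In iron handling, Ncoa4, the receptor that delivers ferritin for breakdown, rose by 2.70 ± 0.14, the transferrin receptor gene Tfrc by 1.64 ± 0.10 and the iron importer gene Slc11a2 by 1.08 ± 0.12. The exporter gene Slc40a1 fell by 3.14 ± 0.15 and the haem oxygenase gene Hmox1 fell by 3.27 ± 0.48, from 11.04 and 10.29 to 7.64 and 7.15. In Slc40a1 and Hmox1, as in every called gene and in 76.8% of all tested genes, the arrays of the days did not overlap. Antioxidant genes fell in 10 of 21 tested cases and rose in 4: Gclm, of glutathione synthesis, fell by 1.74 ± 0.11, catalase (Cat) by 1.41 ± 0.21 and Nfe2l2, which codes for NRF2, by 0.95 ± 0.10, whereas the mitochondrial peroxiredoxin gene Prdx3 rose by 1.13 ± 0.08. Among metallothioneins, Mt1 rose by 0.24 and Mt2 gave -0.26, beside the bound of 293-fold for Mt3.

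**Figure D3:**
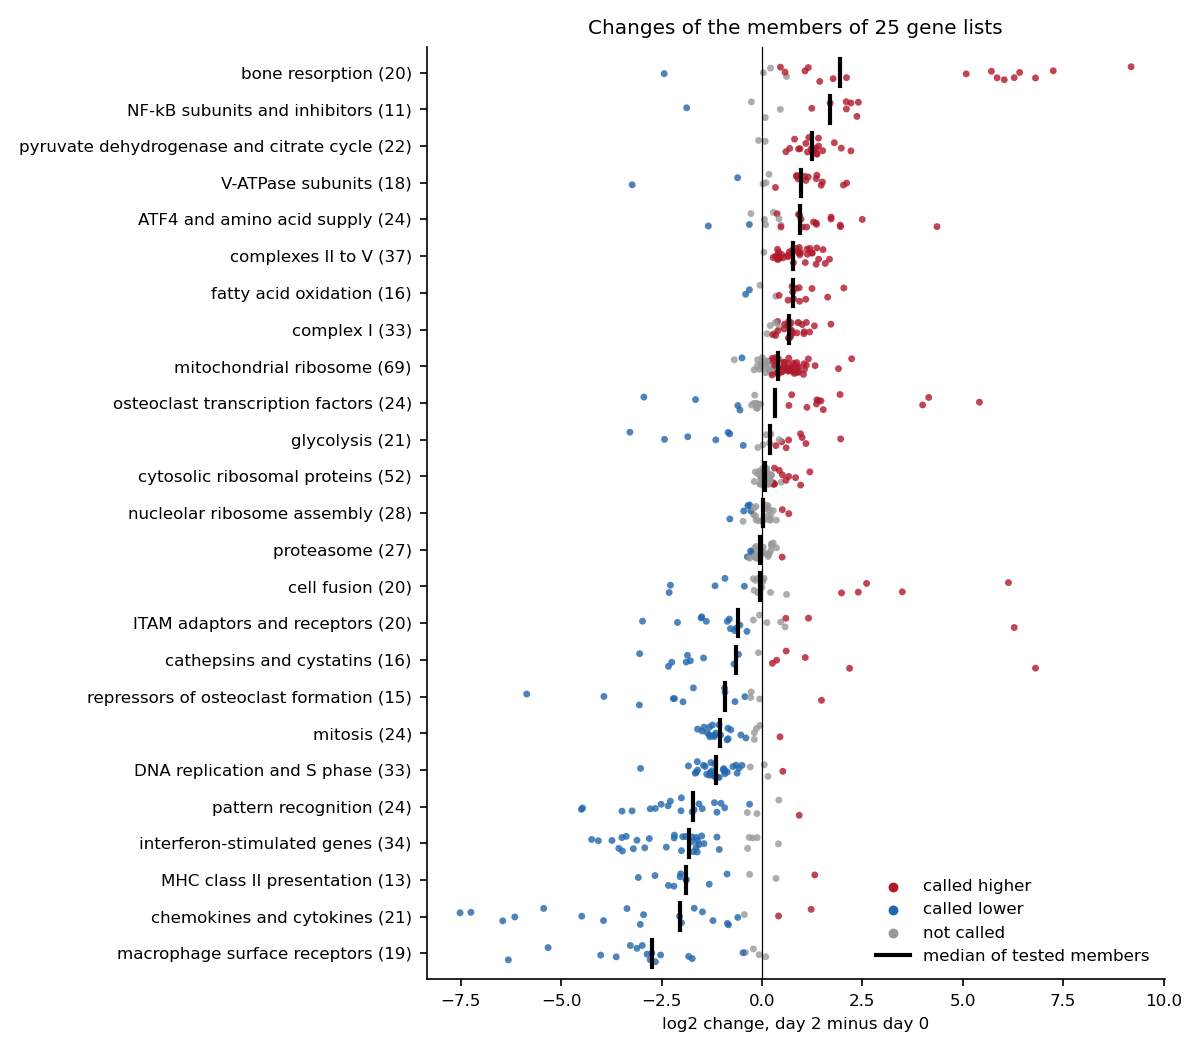
Change from day 0 to day 2 on the log2 scale for each tested member of 25 gene lists, ordered by the median (black bar) with the number of tested members in brackets. Red and blue points were called higher and lower, grey points not called. Medians run from 1.94 for bone resorption to -2.74 for macrophage surface receptors, and the cell fusion genes spread from -2.31 to 6.14 around a median of -0.05.

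The list of surface receptors that mark macrophages had the lowest median of the 52 gene lists. Of its 19 tested members 0 rose and 15 fell (limma, with 0 higher at an unadjusted p under 0.05), with a median of -2.74. The list also holds Lyz1, a lysozyme gene and not a receptor, which did not pass (-0.21). Siglec1, a receptor for sialic acid on tissue macrophages, read 11.59 and 11.49 at day 0 and 4.95 and 5.49 at day 2 and fell by 6.31 ± 0.18 (adjusted p = 6.8e-07), with only 1 of the 2 arrays of day 2 above background. Cx3cr1, the fractalkine receptor gene, fell by 5.32 ± 0.27, the scavenger receptor gene Stab1 by 4.01 ± 0.09, and Mrc1, the mannose receptor gene, fell by 3.63 ± 0.12. Adgre1 and Cd14 fell by 2.74 ± 0.18 and 2.78 ± 0.09 but stayed detected on both arrays of day 2. Itgam did not pass (-0.41 ± 0.16). In cultures measured in bulk, fewer cells of a kind and less RNA per cell cannot be told apart. Among Fc receptors and phagocytosis genes 9 of 14 tested fell and 4 rose. Of the activating IgG receptor genes, Fcgr1 fell by 5.83 ± 0.13, Fcgr3 fell by 4.27 ± 0.12 and Fcgr4 fell by 2.95 ± 0.10, and the NADPH oxidase subunit gene Ncf1 by 2.87 ± 0.11, whereas the kinase gene Fgr and the GTPase gene Rac2 rose by 1.87 ± 0.12 and 1.62 ± 0.09.

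Most genes of secreted defence molecules fell as well. The chemokine genes Ccl7 and Ccl2, which attract monocytes, read 11.86 to 12.23 at day 0 and 4.53 to 4.79 at day 2, where neither was well above background. The lower bounds of their decrease were 113-fold and 105-fold. Ccl12, detected on 1 of the 2 arrays of day 2, fell by 6.45 ± 0.25, Ccl4 by 6.15 ± 0.08 (71.1-fold) and Cxcl14 by 5.43 ± 0.19 (43.2-fold). Of 21 tested chemokine and cytokine genes 18 fell and 2 rose, with a median of -2.05. The exceptions were Il1rn, the interleukin-1 receptor antagonist (1.23 ± 0.09), and Ccl9, a chemokine that osteoclasts make (0.41 ± 0.11), whose arrays read 14.49 or more at both days and whose call was lost without day 0 replicate 2 or day 2 replicate 2. The 3 genes of the C1q complex, which lie together on chromosome 4, fell in parallel: C1qa by 5.57 ± 0.15, C1qc by 5.08 ± 0.09 and C1qb by 4.94 ± 0.14. The neighbouring ribonuclease genes Rnase4 and Ang on chromosome 14 fell by 5.71 ± 0.22 and 5.53 ± 0.15. Igf1, a growth factor of bone, read 13.72 and 13.88 at day 0 and 9.30 on both arrays of day 2, a fall of 4.50 ± 0.09.

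Other large decreases came from transport, methylation and signalling. Slc15a3, a peptide transporter of lysosomes, fell by 5.03 ± 0.12, Folr2, a folate receptor of resident macrophages, by 4.90 ± 0.11, and Dnmt3l, a partner of DNA methyltransferases, by 4.93 ± 0.11, the last with 1 of 2 arrays detected at day 2. Rgs1, a brake on chemokine receptors, the organic anion carrier gene Slco2b1, Cyp4f18, a cytochrome P450 gene, and Nanos1, an RNA-binding protein, were undetected on both arrays of day 2. Their lower bounds were 45.3-fold, 29.9-fold, 25.7-fold and 21.3-fold in that order. Genes that sense microbes fell in 20 of 24 tested cases and rose in 1, with a median of -1.71. Tlr13, a receptor for bacterial RNA, fell by 4.49 ± 0.13 and Ly86, which codes for the coreceptor MD-1, by 4.47 ± 0.12, while Tlr7 fell by 3.48 ± 0.17 and Tlr8, detected on 1 array of day 2, by 3.23 ± 0.18. Irak2, a kinase of the same pathway, rose by 0.93 ± 0.09, and the shared adaptor gene Myd88 fell by only 0.31 ± 0.10.

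Interferon-stimulated genes fell in 29 of 34 tested cases, each of the 29 by at least 2-fold, and 0 rose (limma; 1 was higher at an unadjusted p under 0.05), with a median of -1.82. Ifit3, an antiviral protein, read 11.52 and 11.63 at day 0 and 7.40 and 7.27 at day 2 and fell by 4.24 ± 0.20 (18.9-fold, adjusted p = 4.75e-06). Ifit2 fell by 4.07 ± 0.22, Rsad2, the antiviral enzyme viperin, fell by 3.73 ± 0.16, and Irf7, which drives interferon genes, by 3.56 ± 0.17. The receptor chain gene Ifnar2 fell by 1.44 ± 0.13. Gbp3 (0.41 ± 0.15, adjusted p = 0.0538), Zbp1, Irgm1, Trim25 and Tor3a did not pass. GAAA, any 2 bases, GAAA, a core of the interferon-stimulated response element (ISRE), was searched in the promoter windows, and those of Ifit3 (chr19:34583279-34583578, plus strand) and Rsad2 (chr12:26456403-26456702, minus strand) are shown with the matches on either strand in capitals.
Ifit3: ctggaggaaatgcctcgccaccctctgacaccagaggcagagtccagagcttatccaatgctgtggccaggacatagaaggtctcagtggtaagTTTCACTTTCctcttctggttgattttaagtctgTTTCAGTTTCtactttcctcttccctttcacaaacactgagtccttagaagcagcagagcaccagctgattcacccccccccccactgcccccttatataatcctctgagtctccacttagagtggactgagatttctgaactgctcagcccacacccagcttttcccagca
Rsad2: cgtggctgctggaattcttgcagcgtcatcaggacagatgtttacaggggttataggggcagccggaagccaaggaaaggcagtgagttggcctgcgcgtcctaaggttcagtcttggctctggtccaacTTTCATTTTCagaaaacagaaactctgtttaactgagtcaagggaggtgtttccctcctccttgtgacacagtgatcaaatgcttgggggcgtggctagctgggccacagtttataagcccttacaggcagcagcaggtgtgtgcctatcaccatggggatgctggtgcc

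The motif stood in 16 of 31 windows of the tested interferon-stimulated genes (51.6%), against 3.17% of the windows of all tested genes and 3.44% of all promoter windows. Ifit3 carried 2 matches and Rsad2 1. Among all genes at least 2-fold lower at day 2 the share was 6.23%, and among those at least 2-fold higher 2.37%. Of the 16 genes with a match 14 fell, and of the 10 genes that had a window without a match 9 fell, so that the count of falling genes does not set those with the motif apart.

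Antigen presentation was lower too, class II more than class I. Of 13 tested class II genes 10 fell and 1 rose, with a median of -1.89. H2-Ab1 fell by 2.66 ± 0.11 on its brightest probe, from 10.91 and 11.05 to 8.23 and 8.39, with all 4 probes called lower (-2.66 to -3.01), and Cd40, a costimulatory receptor, fell by 3.08 ± 0.11. Ifi30, a lysosomal thiol reductase that prepares antigens, rose by 1.32 ± 0.09. In class I, 9 of 18 tested genes fell and 1 rose, with a median of -0.38, and the difference between the classes was not itself tested. The class I transactivator gene Nlrc5 fell by 1.87 ± 0.12 and the immunoproteasome gene Psmb8 by 1.07 ± 0.11, the light chain gene B2m gave -0.21 ± 0.09 (adjusted p = 0.0732), and the peptide transporter gene Tap2 rose by 1.09 ± 0.09 while Tap1 fell by 0.91.

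Of 33 tested lysosomal genes other than cathepsins 15 rose and 11 fell, with a median of 0.04. Arsb, which removes sulfate from dermatan sulfate, read 11.22 and 11.21 at day 0 and 13.88 and 14.02 at day 2 and rose by 2.73 ± 0.08, and the sphingomyelinase gene Smpd1 rose by 1.99 ± 0.09. Of the membrane proteins, Lamp1 fell by 1.41 ± 0.11, Lamp2 by 1.72 ± 0.09 and Scarb2 by 2.26 ± 0.09, and so did the acid lipase gene Lipa (2.50 ± 0.30). Cathepsins changed in opposite directions, with 9 of 16 tested genes of the family and its inhibitors lower and 6 higher. Against the rise of Ctsk, Ctsc fell by 3.04 ± 0.08, Lgmn, the related enzyme legumain, by 2.33 ± 0.09, Ctss by 1.89 ± 0.22 and Ctsd by 1.45 ± 0.17, and the inhibitor gene Cst7 was at least 4.06-fold higher. Metalloproteinases and their inhibitors showed the same contrast: only Mmp9 and Mmp14 of 11 tested genes rose, and 7 fell. Adam15 gave -2.22 ± 0.09 and the macrophage elastase gene Mmp12 was at least 3.08-fold lower. Of 32 tested Rab GTPase genes 18 did not pass, and Rab8b, of exocytosis, fell by 2.57 ± 0.08.

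Genes of DNA replication and mitosis fell together. In S phase 29 of 33 tested genes fell and 1 rose, with a median of -1.15, and in mitosis 19 of 24 fell and 1 rose, with a median of -1.05. E2f2, an activator of replication genes, read 9.65 and 9.33 at day 0 and 6.59 and 6.34 at day 2 and fell by 3.02 ± 0.19 (8.13-fold, adjusted p = 1.99e-05). The DNA ligase gene Lig1 fell by 1.83 ± 0.13, the sliding clamp gene Pcna by 1.66 ± 0.16 and the helicase gene Mcm3 by 1.63 ± 0.11. Kif23 and Prc1, which build the midzone on which cells divide in cytokinesis, fell by 1.60 ± 0.15 and 1.49 ± 0.09, and the mitotic kinase gene Cdk1 by 1.23 ± 0.10. Ccnd1, cyclin D1, read 14.29 and 14.21 at day 0 and 11.06 and 10.94 at day 2, a fall of 3.25 ± 0.09 (9.50-fold), and Ccnd2 was at least 4.04-fold lower. The inhibitors of the cycle were not higher as a group: Cdkn1a (p21) fell by 1.77 ± 0.09 and Cdkn2d by 1.82 ± 0.11. Of 13 tested genes of cyclins and cycle inhibitors together, 11 fell. Cdkn2b (p15) alone of the 13 rose, by 2.50 ± 0.16, from 6.29 and 6.76 to 9.01 and 9.04. Cdkn2c had probes called in opposite directions (1.63 and -0.53).

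The cell cycle genes homology region (CHR), TTTGAA, is an element of promoters that are active in mitosis. It was searched on both strands, and a match to it may share letters with a match to the ISRE. The windows of Kif23 (chr9:61946750-61947049, minus strand) and Prc1 (chr7:80294201-80294500, plus strand) are shown with it in capitals.
Kif23: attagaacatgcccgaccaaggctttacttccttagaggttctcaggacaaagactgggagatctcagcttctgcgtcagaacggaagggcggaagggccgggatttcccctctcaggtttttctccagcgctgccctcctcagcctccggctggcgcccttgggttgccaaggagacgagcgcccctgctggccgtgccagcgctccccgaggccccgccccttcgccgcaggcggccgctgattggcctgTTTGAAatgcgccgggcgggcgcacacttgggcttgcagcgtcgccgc
Prc1: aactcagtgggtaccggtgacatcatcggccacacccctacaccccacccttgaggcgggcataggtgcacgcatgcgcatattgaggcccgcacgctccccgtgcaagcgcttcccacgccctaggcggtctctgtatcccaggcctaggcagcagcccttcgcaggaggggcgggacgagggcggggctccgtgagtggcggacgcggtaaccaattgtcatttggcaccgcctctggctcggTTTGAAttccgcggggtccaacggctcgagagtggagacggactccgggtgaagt

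The CHR letters were found in 19 of 24 windows of the mitosis genes (79.2%), which belong to 17 genes, against 11.9% of the windows of all tested genes and 17.9% of all promoter windows. In S phase genes the share was 11.8%, and there the E2F letters TTTCCCGC were found in 4 of 34 windows (11.8%), against 1.89% for all tested genes. Among all genes at least 2-fold lower the CHR share was 16.4%, and among those at least 2-fold higher 9.79%. Of the 17 mitosis genes with a CHR match 12 fell and 1 rose. Of the 5 that had a window without a match 5 fell, so that the count of falling genes does not set those with the motif apart.

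**Figure D4:**
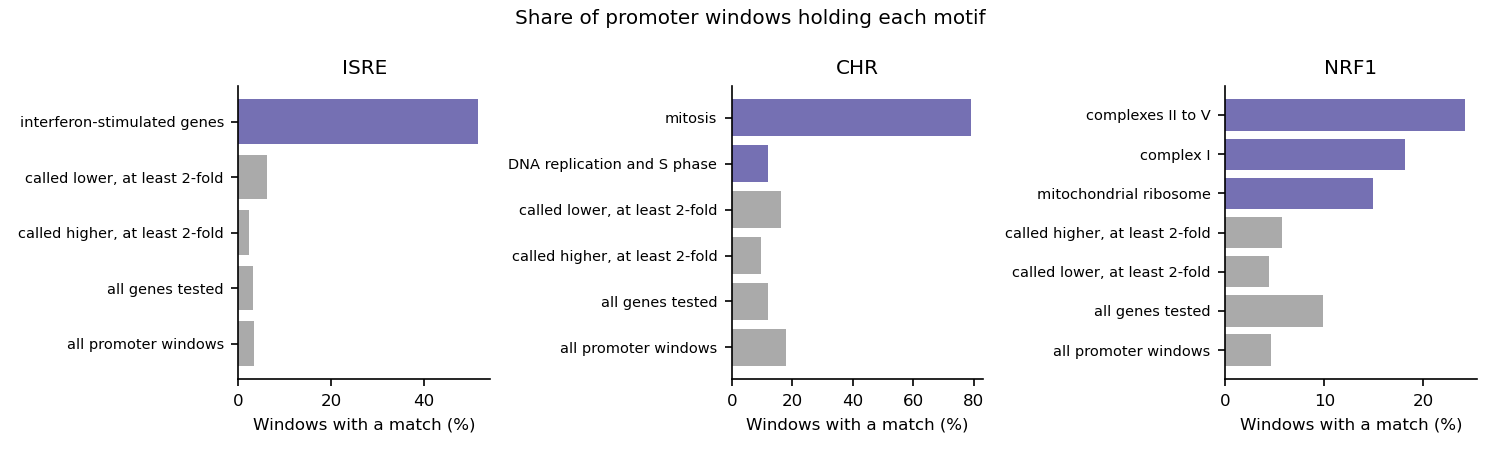
Share of promoter windows (250 bases before to 50 after the start) that hold a motif on either strand, in percent, for 3 motifs. Purple bars are gene lists, grey bars genes by direction of change and all genes or windows. The ISRE letters stand in 51.6% of windows of interferon-stimulated genes against 3.17% over all tested genes, the CHR letters in 79.2% of windows of mitosis genes against 11.9%, and the NRF1 letters in 24.2% of windows of complexes II to V against 9.92%.

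Between days 0 and 2 few genes of protein breakdown and of ribosome assembly changed. Of 27 tested proteasome subunit genes 1 rose and 3 fell, with a median of -0.04, and of 28 nucleolar genes of ribosome assembly 2 rose and 5 fell, with a median of 0.03. Nolc1 (0.67 ± 0.18) and Rrp1b (-0.80 ± 0.17) were the largest changes in the latter group. The call of Nolc1 was lost without day 0 replicate 2 or day 2 replicate 2. In both groups the share of members called was below that of all tested genes in either direction. Against day 1, 26 of the 28 nucleolar genes were lower at day 2 (25.0% of all tested genes were), and their summed linear signal was 67140 and 63660 at day 0, 118400 and 115800 at day 1 and 67310 and 66360 at day 2.

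Factors through which osteoclasts signal to other cells changed in both directions. Of 17 tested coupling and guidance factors 10 rose, each by at least 2-fold, and 6 fell, with a median of 1.62. Their summed linear signal was 29310 and 30130 at day 0 and 16170 and 15810 at day 2. Most of that drop came from Igf1, the member that fell most. On the log2 scale Igf1 read 13.72 and 13.88 at day 0 and 9.30 on both arrays of day 2. Sphk1, which makes sphingosine 1-phosphate, was undetected on both arrays of day 0 (4.60 and 4.72), read 10.61 and 10.63 at day 2 and had a lower bound of 41.2-fold (adjusted p = 1.87e-07), although its other probe did not pass (0.22). Vegfc and Vegfa, growth factors of lymph and blood vessels, were at least 20.1-fold and 4.66-fold higher and Sema7a, a membrane-bound semaphorin, at least 10.6-fold. Vegfc was higher still at day 1, at 10.60 and 10.53 against 9.46 and 9.72 at day 2. Nrp1, a semaphorin and growth factor receptor gene, fell by 3.55 ± 0.15 from 12.31 and 12.03 to 8.65 and 8.59. Among hormone, thrombin and purine receptors 11 of 18 tested genes fell, each by at least 2-fold, and 4 rose. The proton-sensing receptor gene Gpr65 and the nucleotide receptor genes P2ry13 and P2ry6 fell by 3.70 ± 0.33, 3.53 ± 0.15 and 3.24 ± 0.09, the first 2 of them detected on 1 array of day 2, and P2ry14, the receptor for UDP-glucose, rose by 2.58 ± 0.10 from 8.74 on both arrays to 11.23 and 11.40. In the BCL2 family 9 of 15 tested genes rose and 5 fell. Bcl2l1, which codes for the survival protein Bcl-xL, fell by 2.93 ± 0.16 and all 3 of its probes were called lower, Bcl2, detected on 1 array of day 2, fell by 1.70 ± 0.17, and the death-promoting gene Bik was at least 11.4-fold lower, while its relative Bmf rose by 2.01 ± 0.11 and the survival gene Mcl1 by 0.64 ± 0.10.

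Markers of other marrow cells passed the filter on dim probes in part, and most of the lymphocyte and neutrophil markers that did so fell. Of 17 B and T lymphocyte markers listed, 4 were tested and all 4 were lower. Their summed linear signal was 1554 and 1609 on the arrays of day 0 and 195 and 181 on those of day 2, most of it at day 0 from Il7r, which fell by 3.68 ± 0.10. Of 17 neutrophil and precursor markers 12 were tested and 10 fell, their sum going from 1519 and 1628 to 516 and 503, and Mpo, Ctsg and S100a9 were no longer well above background at day 2. Dendritic cell markers gave 2 higher and 4 lower of 7 tested, with sums of 4095 and 4539 at day 0 and 1409 and 1420 at day 2, and Cd83 rose by 1.09 ± 0.15. Of 19 erythroid, megakaryocyte and mast cell markers 4 were tested, Pf4 falling by 4.49 ± 0.21 and Gata2 at least 1.41-fold higher. Of 20 osteoblast, stromal and endothelial markers 3 were tested, and Dcn, decorin, was at least 3.91-fold higher, at 7.11 and 7.34, while Col1a1 and Alpl did not pass. The part of such cells in the decreases of macrophage and cell cycle genes was not tested.

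Day 2 was also set against the days on either side of it, since the level at day 2 need not lie between them. Against the mean of days 1 and 3, a comparison that uses no array of day 0, 823 genes were higher (9.50%) and 694 lower (8.01%). The arrays of day 2 lay above all those of the other days for 508 genes (5.86%) and below them for 450 (5.19%), whether called or not. Both criteria were met by 278 of all tested genes (3.21%) in the upward and by 233 (2.69%) in the downward direction. The calls against the mean of days 1 and 3 depend on single arrays: the 823 higher and 694 lower genes became 293 and 204 without day 2 replicate 2 and 328 and 245 without day 2 replicate 1. Without day 1 replicate 1 or 2 the lower genes became 420 or 378. Fcgrt, the neonatal Fc receptor gene, dipped before it rose: it read 10.34 and 10.45 at day 0, 8.36 and 8.28 at day 1, 11.25 and 11.45 at day 2 and 10.54 and 10.63 at day 3, so that it was 1.90 above the mean of its neighbours (adjusted p = 0.00017) but only 0.95 above day 0. F2r, Ankrd2, a muscle ankyrin repeat protein, Chac1, Msi2, an RNA-binding protein, and Diras1, a GTPase of the Ras family, were highest at day 2 and 1.97 to 2.76 above the mean of days 1 and 3. A low level at day 1 lowers that mean. F2r, for example, read 7.22 and 7.36 at day 1, 12.45 and 12.53 at day 2, and 12.16 and 12.15 at day 3. Its change from day 2 to day 3, -0.33, was not called by limma (adjusted p = 0.0746).

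Among the genes that were lowest at day 2, Htr2b, a serotonin receptor gene, read 9.39 and 9.26 at day 0, 7.11 and 6.81 at day 1, 5.91 and 6.01 at day 2 and 8.45 and 8.43 at day 3. It was 1.74 below the mean of its neighbours. Arg1, the arginase of alternatively activated macrophages, was undetected on both arrays of day 2 (4.49 and 4.57) and read 6.63 and 6.40 at day 1 and 6.39 and 5.31 at day 3. Pdpn, the membrane glycoprotein podoplanin, and Slpi, an inhibitor of serine proteases, were highest at day 1 and 2.25 and 2.01 below the mean of days 1 and 3 at day 2, and the neuropeptide gene Npy was 1.72 below. Siglec1 was 1.59 below, and its arrays at day 3 read 5.83 and 5.69. These genes were chosen for their day 2 level, and the levels are a description.

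**Figure D5:**
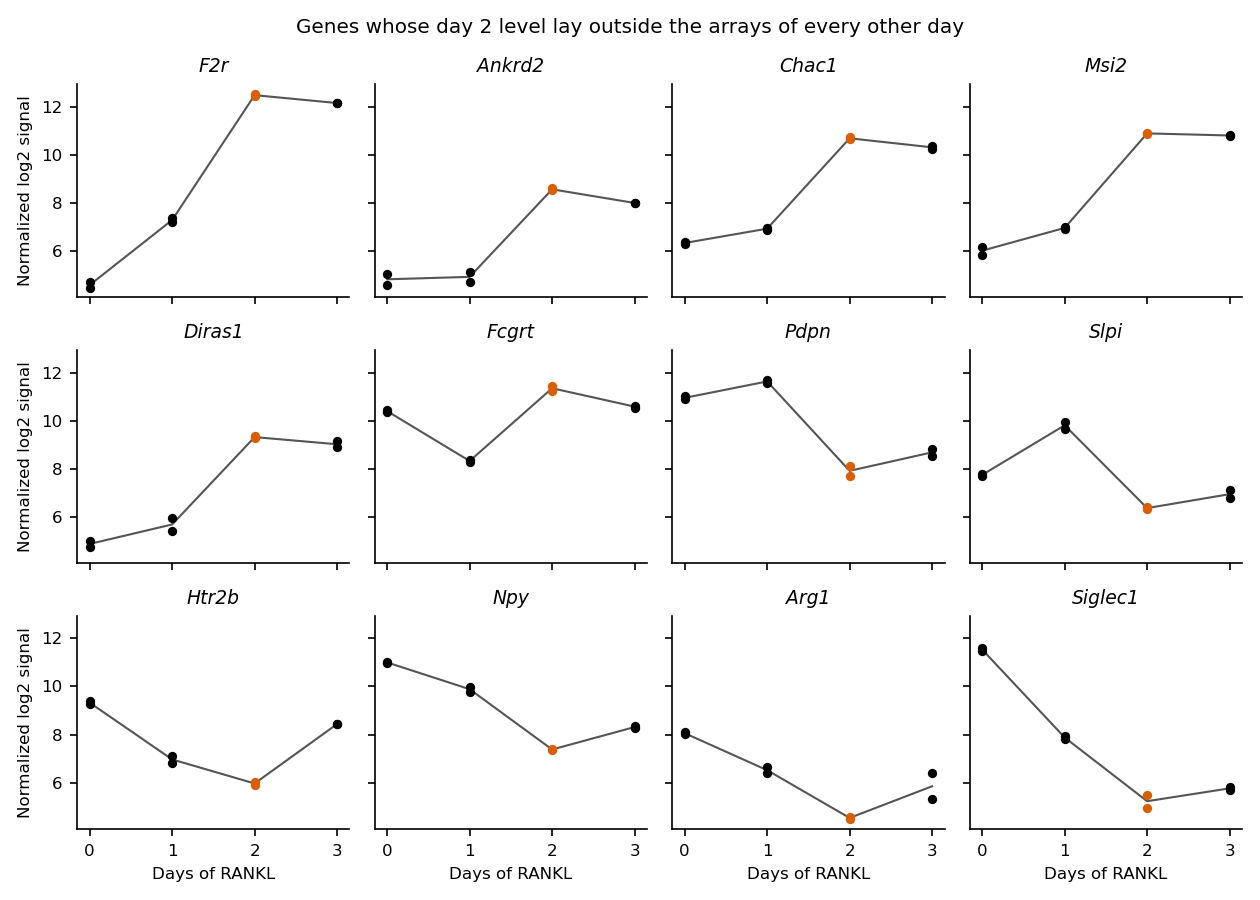
Normalized log2 signal on each array (points, day 2 in orange) against days of RANKL, with lines through the daily means, for the 6 genes furthest above and the 6 furthest below the mean of days 1 and 3 whose day 2 arrays lay outside those of every other day. Fcgrt dips at day 1 and peaks at day 2, and Htr2b is lowest at day 2 and returns to 8.45 and 8.43 at day 3.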

How the data were processed

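The labels describe RNA of mouse cultures on Illumina MouseRef-8 arrays, 1 colour, 8 arrays, 2 for each of 4 days. The authors deposited a linear signal intensity per probe and array with no normalization between arrays, per the file headers, and beside it a detection p-value against the array's negative controls, also as deposited. A second deposited table of processed intensities, made in a way the sources used here do not state, served as an alternative only. Scanner software: not given in the sources used here.

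Signals were background-corrected with normexp, using the detection p-values to place the negative controls, quantile normalized and set to log2 with limma's neqc (offset 16; limma 3.58.1, R 4.3.3). The filter kept probes whose detection p-value was under 0.05 on 2 or more of the 8 arrays. Names came from the platform's annotation (23978 of 25697 probes had 1 symbol), and each gene was represented by its brightest probe on average. One limma fit with 4 day groups shared the spread over all 8 arrays, with Benjamini-Hochberg adjustment over the 8663 genes. Of these, 16 had probes called in opposite directions. The script was tested on simulated data. The comparisons of day 2 with day 0 and with the mean of days 1 and 3 share the arrays of day 2.

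Genes were picked for naming by rule. The 15 largest changes in each direction were taken among called genes detected at both days on 1 array or more. Their arrays also had to lie apart between the days. The 8 largest bounds and the 6 genes furthest off the mean of days 1 and 3 were taken in each direction. From each list came up to 4 called members in its prevailing direction and up to 2 in the other. The uncalled member of each list with the smallest p was added. Every measured member of the fusion, RANK and transcription factor lists was also taken. Not every list member that the rule picks is named in the text. A few further members were named as examples after their values had been seen. The gene lists were chosen with earlier results of these data known. Replicate numbers did not pair the samples: across days, the differences between replicates 1 and 2 correlated at -0.0819 to 0.0677. Csf1r and Cd68 were not analysed here.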

Additional observations from a re-analysis of the deposited data

How the results depend on the processing

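The count of genes higher at day 2 than at day 0 kept within 1.5 times of 2410, and that of lower genes of 2304, under every alternative except limma's treat, which tests against a 2-fold change and left 501 and 579. The same 501 and 579 were the counts at least 2-fold under treat, and without background correction those counts were 483 and 524. Leaving out 1 array at a time gave 1970 to 2394 higher, 1933 to 2294 lower, 887 to 917 at least 2-fold higher and 982 to 991 at least 2-fold lower. Against the mean of days 1 and 3, leaving out 1 array gave 293 to 781 higher and 204 to 658 lower genes, treat gave 14 and 3, and no background correction gave 1137 lower. That comparison has no value on the 4 arrays of days 0 and 2 alone. With replicate number as a block, 2335 genes were higher and 2275 lower; the numbers share no more than a label. Of 389 named genes 317 were called. Of these, 287 kept their call under each of the 21 alternatives except treat, where they had a value. With treat counted, 201 kept it. Of the list counts under the alternatives, 230 moved by more than 1.5 times and 1954 did not. Fold changes of dim genes depend on the background correction, and for genes near background only a bound or a direction can be given.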
